A study of Arabidopsis thaliana with 3 samples.

Results

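Cytosolic ribosomal protein genes of Arabidopsis thaliana were compared paralog by paralog in polyA RNA and in uncapped polyA RNA. A list of 53 gene identifiers was matched to the identifier column of each table, and all 53 were found above 0 in all 3 libraries, among 26810 genes listed in any library. The genes encode 23 proteins if paralogs are joined: 20 sets of 2 or more genes (11 sets of 2, 8 sets of 3 and 1 set of 4), and 3 genes that stand alone in the list, for RPL8, RPL28 and RPS15. The cytosolic ribosome joins a small (40S) and a large (60S) subunit, each built from ribosomal RNA and many different proteins. In Arabidopsis nearly every one of these proteins is encoded by a small family of genes whose protein products are close to identical, so that a ribosome can carry any of several paralogs. Mutants of single paralogs often have narrow, pointed leaves, and growing tissue such as young flower buds holds these mRNAs at high levels.

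All 3 libraries came from immature inflorescences of about 4-week-old dcl1-7 plants, which had 16 h light and 8 h dark per day and no other treatment. The dcl1-7 allele impairs DCL1, a Dicer that frees microRNAs from their precursors, and no other genotype is analysed here, so nothing below separates an effect of dcl1-7 from what any plant would show. Polyadenylated RNA was sequenced directly in 2 RNA-seq libraries, which measure how much of each mRNA is present. GMUCT, the mapping of uncapped and cleaved transcripts over the genome, was done in 1 library and captures polyA RNA whose 5′ end carries a phosphate in place of a cap, that is, mRNA that has been decapped or cut. The labels do not say whether the RNA-seq replicates are separate plants, so their spread may be technical.

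Values are RPKM (reads scaled to gene length and to library size). Whether GMUCT reads scale with gene length was not tested, so GMUCT levels of genes of different length may not compare directly. Steps between low RPKM values gave approximate depths of 1.85e+07 and 8.69e+06 reads for the RNA-seq libraries and 1.95e+07 reads for GMUCT. At these depths the fewest reads behind any ribosomal protein gene were about 182 in RNA-seq 1, 82.4 in RNA-seq 2 and 146 in GMUCT. All 6 inflorescence marker genes (AP1, AP3, PI, AG, SEP3 and LFY) were above 0 in every library, with summed levels of 418.65, 417.94 and 353.96 RPKM in RNA-seq 1, RNA-seq 2 and GMUCT. The 3 root markers summed to at most 1.73 RPKM in any library, and 2 of them, RHD6 and EXPA7, were at 0 in both RNA-seq libraries. The 3 mature pollen markers summed to 280.68 and 310.54 RPKM in the RNA-seq libraries and to 48.31 RPKM in GMUCT. The pollen markers were thus lower in GMUCT, and their part in the results below was not tested. In whole buds, fewer cells of a type and less RNA per cell cannot be told apart.

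The 53 genes together took 2.18% and 2.23% of the summed RPKM of the RNA-seq libraries and 1.92% of that of GMUCT. Their median RPKM was 178.73 in RNA-seq 1, 189.76 in RNA-seq 2 and 95.42 in GMUCT. The RNA-seq levels ran from 6.98 to 680.27 RPKM in RNA-seq 1, and the GMUCT levels from 6.24 to 2570.57 RPKM. In RNA-seq 50 of the genes stood above the 90th percentile of all listed genes, and in GMUCT 44 did. The RNA-seq libraries gave nearly the same picture: the largest difference for any of the genes was 0.32 on the log2(RPKM + 0.5) scale, and 42 of 53 genes were higher in RNA-seq 2. None of the 53 was 2-fold apart between these libraries, beside 0.331% of all tested genes. Across the 53 genes the GMUCT level followed the RNA-seq level loosely (Spearman's rho 0.70, Pearson's r 0.67 on log2 levels), against rho 0.99 between the RNA-seq libraries. Such correlations run across genes of the same libraries and are given as a description. The plot of RPKM by library shows 51 of the genes.

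**Figure D1:**
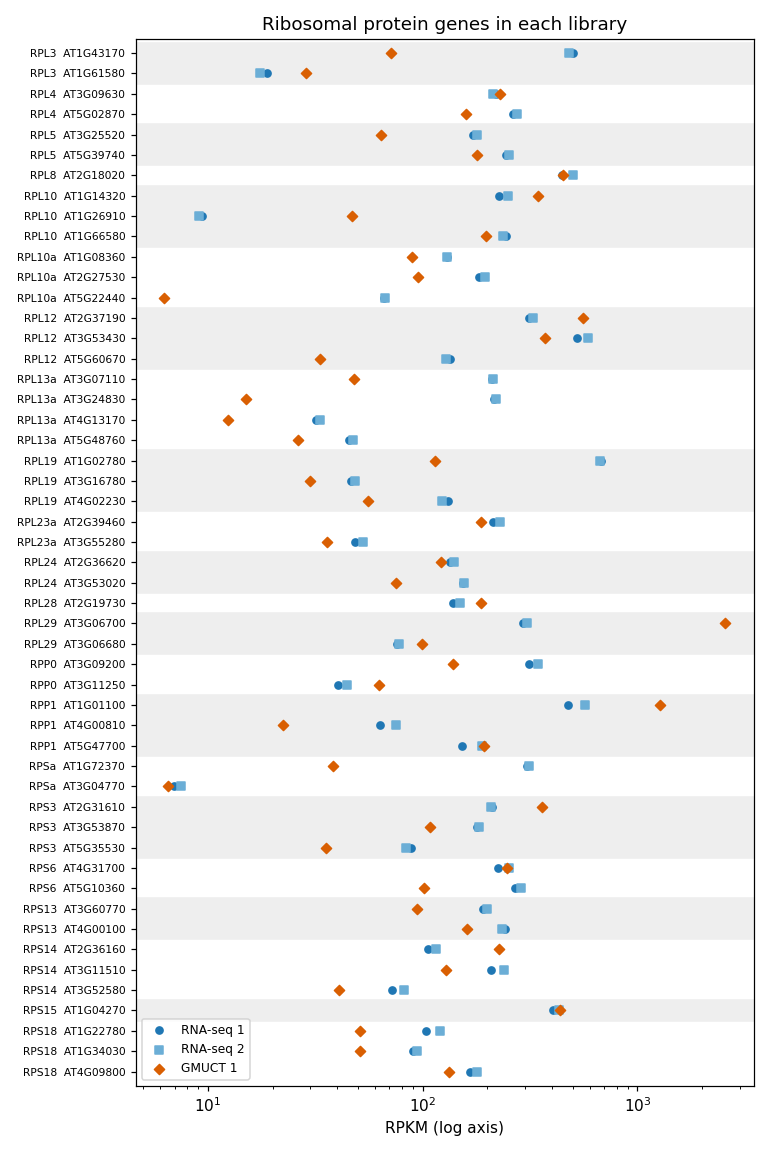
RPKM of 51 of the 53 ribosomal protein genes (log axis) in RNA-seq 1 (circles), RNA-seq 2 (squares) and GMUCT 1 (diamonds), with genes of one protein in one shaded or unshaded block. The RNA-seq symbols nearly coincide for every gene, whereas over all 53 genes GMUCT lies below both for 37, above both for 14 and between them for 2. This count was not made over all tested genes, so it is not shown to be particular to these genes.

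The GMUCT to RNA-seq ratio of each gene was taken as the difference between the GMUCT value and the mean of the RNA-seq values on the log2(RPKM + 0.5) scale, and is called the log2 ratio. By limma, fitted over 20214 genes with Benjamini-Hochberg adjustment at 0.05, 34 of the 53 genes were lower in GMUCT than in RNA-seq, 11 were higher and 8 did not pass. Of all tested genes 36.9% were lower and 32.1% were higher, 69% in all, so a call by itself is common. The fit assumes for the lone GMUCT library the spread seen between RNA-seq libraries, which the data cannot check. A rule of size without that assumption, a distance of 2-fold or more from each RNA-seq library, both on the same side, placed 19 of the 53 genes below and 3 above, beside 17.3% and 19.9% of all tested genes. The 3 genes above were AT3G06700 (RPL29), RPL10B and AT1G01100 (RPP1).

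The median log2 ratio of the 53 genes was -0.66, with an interquartile range of -1.25 to 0.06 and extremes of -3.81 and 3.10, and the median of all tested genes was -0.07. Highly expressed genes in general had low ratios: of 1439 tested genes with at least 50 RPKM in RNA-seq and on no ribosomal protein list, 58.2% were lower and 24.5% higher by limma, and their median was -0.59. The level of 50 RPKM was chosen after the values had been seen, and 46 of the 53 genes reach it. The group was picked by its RNA-seq level, which is also the denominator of the ratio, so its low median is in part built in. The calls for the ribosomal protein genes, 64.2% lower and 20.8% higher, were thus close to those of this group. By the 2-fold rule 34.1% of the group lay below and 12.2% above, against 35.85% and 5.66% of the 53 genes. The levels were not matched: the median RNA-seq level was 90.11 RPKM in the group and 180.785 RPKM for the 53 genes. By subunit, 13 of 18 genes of the 40S subunit were lower and 2 higher (median -0.82), 19 of 30 genes of the 60S subunit were lower and 7 higher (median -0.56), and of 5 genes of the P-stalk 2 were lower and 2 higher (median 0.19). Summed over the listed genes of a protein, the log2 ratio ran from -2.80 for RPSa to 2.82 for RPL29. Whole sets of listed genes thus differed as well as paralogs within a set, as the plot of log2 ratios by set shows.

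**Figure D2:**
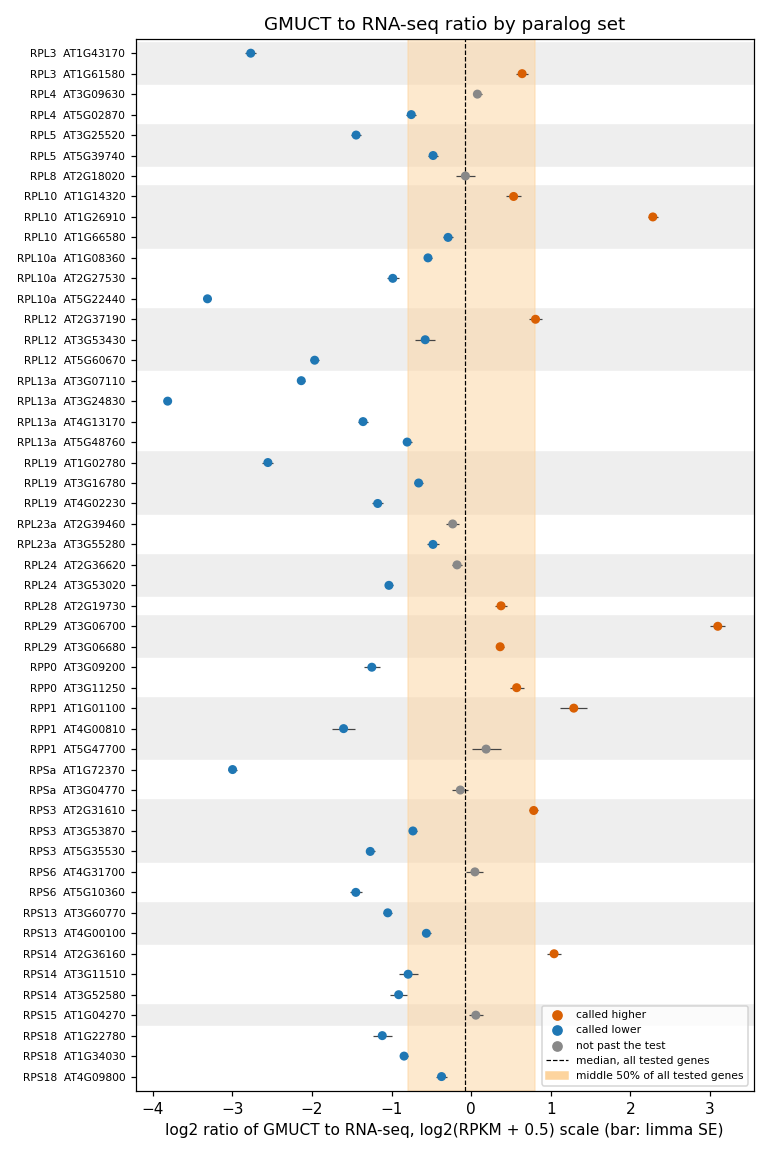
GMUCT to RNA-seq log2 ratio on the log2(RPKM + 0.5) scale for 51 of the genes, with the limma standard error as a bar, coloured by call (orange higher, blue lower, grey not past the test). The dashed line is the median of all tested genes (-0.07) and the band their middle 50%. Within RPL3, RPL13a, RPP1 and RPSa the highest and the lowest paralog lie 2.86 to 3.41 log2 units apart.

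RPL29 is one of the smallest proteins of the 60S subunit, and its pair of genes held the highest value of all. AT3G06700 and AT3G06680 lie on the minus strand of chromosome 3 and encode 61 and 83 residues in the annotation. Over 186 coding bases they are 87.1% identical, and 3 of 62 codons there, the stop codon counted, encode a different residue. The whole messages are less alike, with annotated transcripts of 750 nt for AT3G06700 and 402 nt for AT3G06680. The shared stretch is printed because such similar coding bases belong to messages of very unlike GMUCT levels (TAIR10.1, coding strand, bases 1 to 186 of AT3G06700 and 67 to 252 of AT3G06680, capitals at the 24 bases that differ).
AT3G06700: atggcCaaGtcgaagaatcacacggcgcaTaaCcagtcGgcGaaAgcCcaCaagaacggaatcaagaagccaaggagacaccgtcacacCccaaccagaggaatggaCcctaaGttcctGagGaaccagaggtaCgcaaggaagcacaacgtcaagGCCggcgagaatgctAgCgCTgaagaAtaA
AT3G06680: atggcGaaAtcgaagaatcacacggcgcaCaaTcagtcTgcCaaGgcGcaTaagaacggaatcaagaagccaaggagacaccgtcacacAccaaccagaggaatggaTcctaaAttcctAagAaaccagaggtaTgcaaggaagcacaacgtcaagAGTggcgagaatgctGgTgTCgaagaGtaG
AT3G06700 stood at 293.55 and 306.65 RPKM in RNA-seq 1 and 2 and at 2570.57 RPKM in GMUCT. In RNA-seq it ranked 182nd of all listed genes, and in GMUCT it ranked 9th. Its GMUCT value was 8.57 times the RNA-seq mean (log2 ratio 3.10, SE 0.10, limma adjusted p = 0.0046). AT3G06680 stood at 75.91, 77.61 and 98.90 RPKM in the same order, a log2 ratio of 0.36 (SE 0.05, adjusted p = 0.017). Its direction turned to -0.36 where the trend of the ratio with transcript length was removed, whereas AT3G06700 then stood at 2.67. AT3G06700 made up 79.6% of the set's RNA-seq and 96.3% of its GMUCT signal. Of its possible 50-nt reads 2.28% match AT3G06680 with at most 2 mismatches.

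RPL13a is a 60S protein with 4 genes in the list, among them the gene at the opposite end, AT3G24830. All 4 genes were lower in GMUCT, but by very different amounts. AT3G24830 fell from 215.23 and 219.52 RPKM in RNA-seq to 15.02 RPKM in GMUCT, a 14.5-fold lower level and the lowest log2 ratio of all 53 genes (-3.81, SE 0.05, limma adjusted p = 0.0024). Its rank among all listed genes went from 280 to 6000. AT3G07110 had almost the same RNA-seq level, 210.14 and 212.63 RPKM, and 47.79 RPKM in GMUCT (log2 ratio -2.13, SE 0.05, adjusted p = 0.0038). The pair is therefore level in RNA-seq, with a log2 ratio between the genes of -0.03 and -0.05 in the separate libraries, and 1.64 log2 units apart in GMUCT. Over the 621 bases of their coding sequences these equally expressed paralogs are 82.8% identical. The start, printed here, is less alike, at 75.8% identity (TAIR10.1, chromosome 3, plus strand for both, coding bases 1 to 120, capitals at the 29 bases that differ, which change 7 of 40 codons to another residue).
AT3G24830: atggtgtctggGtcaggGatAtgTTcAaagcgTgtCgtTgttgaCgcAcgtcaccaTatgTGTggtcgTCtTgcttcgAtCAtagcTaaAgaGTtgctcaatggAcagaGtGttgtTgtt
AT3G07110: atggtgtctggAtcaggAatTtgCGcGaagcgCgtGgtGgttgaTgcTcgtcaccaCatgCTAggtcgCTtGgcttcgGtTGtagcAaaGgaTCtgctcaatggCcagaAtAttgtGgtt
The other two RPL13a genes were expressed at lower levels. AT5G48760 stood at 45.40 and 47.40 RPKM by RNA-seq and at 26.36 RPKM by GMUCT (log2 ratio -0.80, SE 0.06). AT4G13170 stood at 32.01 and 33.43 RPKM by RNA-seq and at 12.46 RPKM by GMUCT (log2 ratio -1.36, SE 0.06). The annotated transcript of AT4G13170 overlaps AT4G13160 on the opposite strand, and 51.9% of its 50-nt reads also match another gene, so its value is uncertain unless strand was used in counting. In RNA-seq AT3G24830 was the most abundant RPL13a gene, and in GMUCT it came after AT3G07110 and AT5G48760.

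RPL3, a core protein near the peptidyl transferase centre of the 60S subunit, had the widest span of any set, 3.41 log2 units. RP1 (AT1G43170) stood at 499.92 and 481.08 RPKM by RNA-seq and at 71.57 RPKM by GMUCT, 6.85-fold lower (log2 ratio -2.77, SE 0.07, limma adjusted p = 0.0040). RPL3B (AT1G61580), the minor paralog, stood at 18.89 and 17.44 RPKM by RNA-seq and at 28.56 RPKM by GMUCT (log2 ratio 0.64, SE 0.08, adjusted p = 0.016). The calls thus went in opposite directions within the pair. RP1 was 27-fold above RPL3B in RNA-seq and 2.51-fold above it in GMUCT, so its share of the set went from 96.4% to 71.5%. RPL3B overlaps AT1G61575 on the opposite strand.

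RPL10 sits near the transfer RNA sites and is among the last proteins to join the 60S subunit. SAC52 (AT1G14320), whose name comes from a mutation that suppresses the dwarf stem of acaulis mutants, stood at 227.94 and 249.35 RPKM by RNA-seq and at 345.21 RPKM by GMUCT (log2 ratio 0.53, SE 0.09). SAG24 (AT1G66580) stood at 244.43 and 236.02 RPKM by RNA-seq and at 196.34 RPKM by GMUCT (log2 ratio -0.29, SE 0.06). The RNA-seq libraries did not agree on which of these paralogs was higher, and in GMUCT SAC52 was. SAC52 was called higher and SAG24 lower by limma, but both calls were lost with no filter on low values, that of SAC52 also with the length trend removed and that of SAG24 also with the median of all tested genes set to 0 and with no trend in the fit. RPL10B (AT1G26910) was the minor paralog, at 9.38 and 9.06 RPKM by RNA-seq and at 46.75 RPKM by GMUCT, 5.07 times the RNA-seq mean (log2 ratio 2.28, SE 0.06, limma adjusted p = 0.0043). RPL10B made up 1.89% of the set in RNA-seq and 7.95% in GMUCT. Between 12.9% and 21.5% of the 50-nt reads of each RPL10 gene match another gene with at most 2 mismatches, mostly another RPL10 paralog, and for SAC52 and SAG24 the longest identical run of coding sequence is 98 bases. The assignment of such reads is not given in the sources used here, and its part in these values was not tested.

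RPL10a forms the movable L1 stalk, where spent transfer RNA leaves the ribosome. All 3 genes were lower in GMUCT by limma. AT5G22440 stood at 66.10 and 66.70 RPKM by RNA-seq and at 6.24 RPKM by GMUCT, the lowest GMUCT value of the 53 genes (log2 ratio -3.31, SE 0.05, limma adjusted p = 0.0024). It was 10.6-fold lower, on about 146 GMUCT reads. PGY1 (AT2G27530), named after the piggyback leaf mutants, stood at 183.07 and 195.67 RPKM by RNA-seq and at 95.42 RPKM by GMUCT (log2 ratio -0.98, SE 0.07). AT1G08360 stood at 130.08 and 130.32 RPKM by RNA-seq and at 89.24 RPKM by GMUCT (log2 ratio -0.54, SE 0.05). PGY1 held 49.0% of the set in RNA-seq and 50.0% in GMUCT, while AT5G22440 went from 17.2% to 3.27%.

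RPL12 lies at the base of the stalk that recruits elongation factors, and each of its 3 genes has 1 exon. AT2G37190 stood at 313.02 and 326.92 RPKM by RNA-seq and at 560.46 RPKM by GMUCT (log2 ratio 0.81, SE 0.08). AT3G53430 stood at 522.55 and 588.31 RPKM by RNA-seq and at 371.45 RPKM by GMUCT (log2 ratio -0.58, SE 0.12). AT5G60670 stood at 134.36 and 128.44 RPKM by RNA-seq and at 33.27 RPKM by GMUCT (log2 ratio -1.97, SE 0.06). The first was higher and the others lower by limma, with adjusted p of 0.011, 0.041 and 0.0045, and the call for AT3G53430 was lost with no filter and with the median of all tested genes set to 0. AT3G53430 was the leading RPL12 gene in both RNA-seq libraries, and AT2G37190 the leading one in GMUCT, with 58.1% of the set. Under 1% of the 50-nt reads of any RPL12 gene match another gene with at most 2 mismatches.

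RPL19, which helps to bridge the subunits, spanned 1.89 log2 units. emb2386 (AT1G02780), the most abundant of all 53 genes in RNA-seq at 680.27 and 670.08 RPKM, stood at 114.66 RPKM in GMUCT, 5.89-fold lower (log2 ratio -2.55, SE 0.07, limma adjusted p = 0.0043). Its paralogs AT4G02230 and AT3G16780 were lower by less, with log2 ratios of -1.17 (SE 0.07) and -0.66 (SE 0.05). The share of emb2386 went from 79.5% of the set to 57.2%.

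The remaining 60S sets moved less. RPL5, which carries 5S ribosomal RNA into the ribosome, had log2 ratios of -1.44 for ATL5 and -0.48 for RPL5B, both called lower, but 19.8% and 24.6% of their 50-nt reads match another gene with at most 2 mismatches. RPL4, which lines the exit tunnel, had 0.08 for AT3G09630, which did not pass the test, and -0.75 for AT5G02870, which was lower. RPL24 had -0.18 for RPL24A, not past the test, and -1.03 for STV1, the SHORT VALVE1 gene known for its role in gynoecium patterning and in translation reinitiation. In both the RPL4 and RPL24 sets the gene that led in RNA-seq was second in GMUCT. RPL23a, at the exit of the tunnel, had the narrowest span, 0.25, with -0.23 for RPL23AA (not past the test) and -0.48 for RPL23AB, called lower except with no filter. The genes without a partner in the list were RPL8 AT2G18020, at -0.07 and not past the test, and RPL28 AT2G19730, at 0.37 and higher. The call for AT2G19730 was lost with no filter on low values and with no trend in the limma fit, and its value turned to -0.06 with the length trend removed.

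The P-stalk is the flexible arm of the 60S subunit that stimulates the GTPases of translation; P0 is its scaffold, and P1 with P2 are the acidic proteins bound to it. RPP1 was the set with a gene on each side of the 2-fold rule, and the RNA-seq libraries were farther apart here than elsewhere, with a median difference of 0.25 log2 units over the 5 P-stalk genes against 0.06 over all 53. AT1G01100 stood at 477.78 and 569.75 RPKM by RNA-seq and at 1275.32 RPKM by GMUCT, 2.43 times the mean (log2 ratio 1.29, SE 0.17, limma adjusted p = 0.017). AT4G00810 stood at 63.30 and 75.50 RPKM by RNA-seq and at 22.44 RPKM by GMUCT (log2 ratio -1.60, SE 0.14, adjusted p = 0.0099). AT5G47700 stood at 152.07 and 189.76 RPKM by RNA-seq and at 193.52 RPKM by GMUCT (log2 ratio 0.19, SE 0.18, adjusted p = 0.43), so that its GMUCT value was barely above RNA-seq 2. AT1G01100 was 7.55-fold above AT4G00810 in RNA-seq and 56.8-fold above it in GMUCT. With 93.2% identity AT1G01100 and AT5G47700 have the most similar coding sequences of any pair, and 20.8% and 12.9% of their 50-nt reads match each other with at most 2 mismatches. Their coding starts are printed to show how few bases separate the reads (TAIR10.1, minus strand of chromosomes 1 and 5, coding bases 1 to 120, capitals at the 8 bases that differ, which change 1 of 40 codons to another residue).
AT1G01100: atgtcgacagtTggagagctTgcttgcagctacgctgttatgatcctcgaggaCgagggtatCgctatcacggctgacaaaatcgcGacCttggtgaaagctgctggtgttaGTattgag
AT5G47700: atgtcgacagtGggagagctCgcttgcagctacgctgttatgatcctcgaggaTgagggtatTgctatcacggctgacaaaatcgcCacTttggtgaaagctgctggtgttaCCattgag
AT1G01100 lost its limma call where genes of low level were not filtered out, and with the length trend removed its log2 ratio was 0.86, short of 2-fold. In the RPP0 pair the major gene AT3G09200 was lower (log2 ratio -1.25, SE 0.10) and the minor gene AT3G11250 higher (log2 ratio 0.57, SE 0.09, a call lost with no filter), and the major gene's share went from 88.6% to 68.8%. AT3G09200 overlaps AT3G09210 on the same strand.

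Among 40S proteins RPSa had the widest span. This protein lies near the exit of the mRNA channel and is also called P40. P40 (AT1G72370) stood at 305.39 and 311.32 RPKM by RNA-seq and at 38.21 RPKM by GMUCT, 8.07-fold lower (log2 ratio -3.00, SE 0.05, limma adjusted p = 0.0028). RPSAb (AT3G04770) stood at 6.98 and 7.48 RPKM by RNA-seq and at 6.53 RPKM by GMUCT (log2 ratio -0.14, SE 0.10, adjusted p = 0.32). P40 was 42.6-fold above RPSAb in RNA-seq and 5.85-fold above it in GMUCT. No 50-nt read of either transcript matches another transcript with at most 2 mismatches. Both gene loci overlap an annotated neighbour, P40 on the opposite strand and RPSAb on the same strand.

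RPS3, at the entry of the mRNA channel, had calls in both directions. AT2G31610 stood at 209.99 and 208.20 RPKM by RNA-seq and at 360.80 RPKM by GMUCT (log2 ratio 0.79, SE 0.06, limma adjusted p = 0.0079). AT3G53870 stood at 178.73 and 182.84 RPKM by RNA-seq and at 108.68 RPKM by GMUCT (log2 ratio -0.73, SE 0.05, adjusted p = 0.0077). AT5G35530 stood at 87.98 and 83.76 RPKM by RNA-seq and at 35.37 RPKM by GMUCT (log2 ratio -1.27, SE 0.06, adjusted p = 0.0053). AT2G31610 led the set in every library, with 44.0% of the RNA-seq and 71.5% of the GMUCT signal. Of its 50-nt reads 20.2% match another gene, mostly AT3G53870 (18.2%), whereas AT5G35530 shares 2.14%.

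RPS18 is a protein of the 40S head. PFL (AT1G22780), the POINTED FIRST LEAF gene, stood at 103.95 and 120.08 RPKM by RNA-seq and at 51.27 RPKM by GMUCT (log2 ratio -1.12, SE 0.12). AT1G34030 stood at 90.12 and 93.84 RPKM by RNA-seq and at 51.06 RPKM by GMUCT (log2 ratio -0.84, SE 0.05). RPS18C (AT4G09800) stood at 166.78 and 178.85 RPKM by RNA-seq and at 133.35 RPKM by GMUCT (log2 ratio -0.37, SE 0.07). All 3 were lower by limma, the call for RPS18C being lost with no filter, with the median of all tested genes set to 0 and with no trend in the fit. The span was 0.74, and the order of PFL, AT1G34030 and RPS18C was the same in RNA-seq and GMUCT. PFL and AT1G34030, which differed by 0.20 and 0.35 log2 units in the RNA-seq libraries, were level in GMUCT at a difference of 0.01.

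The other 40S sets described here spanned less than 2 log2 units. In RPS14, AT2G36160 was higher in GMUCT (log2 ratio 1.04, SE 0.08) and AT3G11510 and AT3G52580 lower (-0.79 and -0.91, the first call being lost with no filter), so AT2G36160 went from 26.9% to 57.3% of the set, the largest gain of share among all genes. In RPS6, the substrate of the S6 kinase that acts downstream of TOR, RPS6 (AT4G31700) had a log2 ratio of 0.05 and did not pass the test, and EMB3010 (AT5G10360) was lower at -1.45, which took AT4G31700 from 46.1% to 70.8% of the set. RPS13 had both paralogs lower, at -1.05 for AT3G60770 and -0.56 for RPS13A. RPS15 (AT1G04270), a protein near the decoding site with no partner in the list, had a log2 ratio of 0.06 and did not pass the test.

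Over the 20 sets, the log2 ratios of paralogs spanned at least 2 in 9 sets, at least 1 in 13 sets, and 1.92 at the median. Such spans were not worked out for sets of other genes, so they only describe these sets. Calls went in both directions within 7 sets: RPL3, RPL10, RPL12, RPP0, RPP1, RPS3 and RPS14. With no filter on low values 4 of these sets remained, RPL3, RPL12, RPS3 and RPS14. Without genes that share 10% or more of their 50-nt reads, a limit chosen after the data were seen, 4 remained, RPL3, RPL12, RPP0 and RPS14. Without genes that overlap another gene, also chosen after the data were seen, 5 remained, RPL10, RPL12, RPP1, RPS3 and RPS14. RPL3 and RPP0 each lost a gene by that last rule. The most abundant gene of the set was the same in RNA-seq and GMUCT in 13 sets and differed in 7, namely RPL4, RPL10, RPL12, RPL13a, RPL24, RPS6 and RPS14. Between the RNA-seq libraries themselves the leader was the same in 19 sets, the exception being RPL10. The gene that led in RNA-seq had a lower share in GMUCT in 12 sets and a higher one in 8. Picking the leader by its RNA-seq level by itself favours a lower share in GMUCT. The stacked shares by set show these changes.

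**Figure D3:**
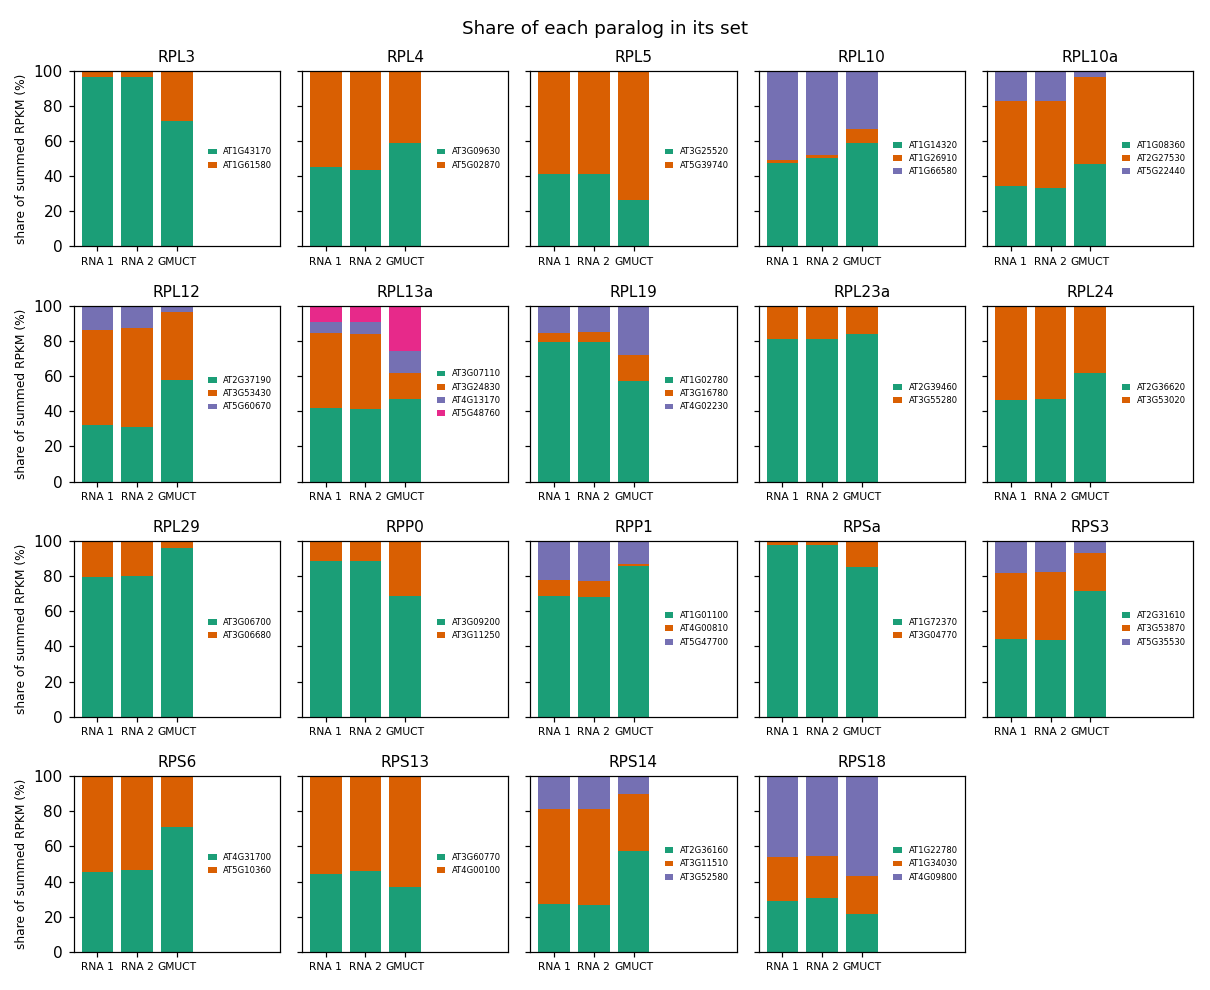
Share of each paralog in the summed RPKM of its set (percent, stacked to 100) in RNA-seq 1, RNA-seq 2 and GMUCT for 19 of the sets with at least 2 genes. The RNA-seq bars are nearly alike in every panel; in GMUCT AT2G36160 goes from 26.9% to 57.3% of RPS14 and AT3G24830 goes from 42.8% to 14.8% of RPL13a.

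The 20 sets give 41 pairs of paralogs, and the ratio within a pair does not depend on the scaling of a library. The pair ratios of the RNA-seq libraries differed by 0.06 log2 units at the median and by 0.24 at most. The GMUCT pair ratio differed from the RNA-seq mean by 1.39 log2 units at the median, and in all 41 pairs it was farther from both RNA-seq libraries than these were from each other. With 1 GMUCT library the spread of a GMUCT pair ratio is not known, so no test of a pair was made. The GMUCT pair ratio was 2-fold or more away from that of each RNA-seq library in 25 pairs and at least 4-fold in 11. In 8 pairs the order was swapped against the RNA-seq mean, for example AT3G24830 and AT5G48760 of RPL13a, where the first was 2.22 log2 units above the second in RNA-seq and 0.79 below it in GMUCT. Among the 8 are SAC52 and SAG24 of RPL10, whose order already differed between the RNA-seq libraries. Pairs share genes within the sets of 3 and 4, so these counts are not independent. Pair ratios were not worked out for pairs of other genes, so the counts only describe these pairs.

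**Figure D4:**
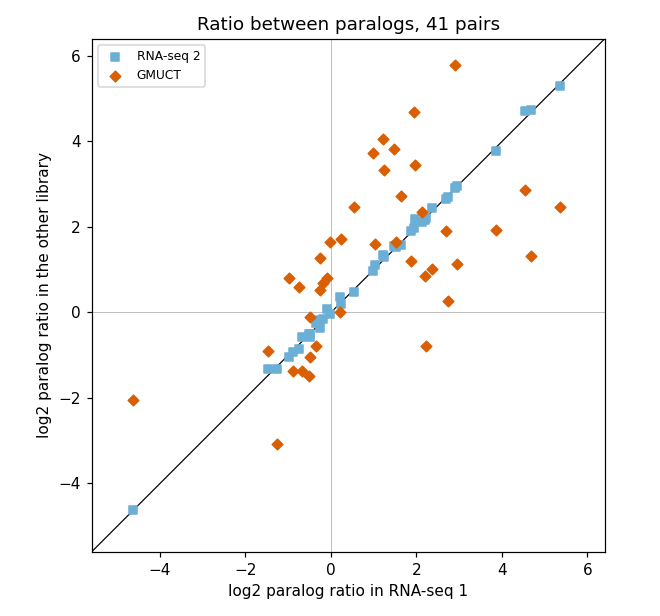
The log2 ratio between the paralogs of each of the 41 pairs in RNA-seq 1 (horizontal axis) against the same ratio in RNA-seq 2 (squares) and in GMUCT (diamonds), with the line of equal ratios. The squares lie within 0.24 log2 units of the line, whereas the diamonds scatter around it in both directions.

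Summed over the listed genes of a protein, the signal was lower in GMUCT than in both RNA-seq libraries for 15 of the 23 proteins and higher than in both for 6. Any gene of the same protein outside the list is not in these sums. Sums over sets of other genes were not made for comparison. The lowest sum was that of RPSa, at 312.37 and 318.80 RPKM by RNA-seq and at 44.74 RPKM by GMUCT, and the highest relative to RNA-seq that of RPL29, at 369.46, 384.26 and 2669.47 RPKM. The sums of RPL12 were 969.93, 1043.67 and 965.18 RPKM, although its genes ran from a log2 ratio of -1.97 to 0.81. The RPS14 and RPS3 sums differed little either, with log2 ratios of -0.05 and 0.09.

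Coding sequences of paralogs in the sets were between 79.7% and 93.2% identical (median 86.2%), with a longest identical run of 17 to 98 bases (median 31), and 6 of 41 pairs had a run of 50 bases or more, the read length. No gene had a near-identical copy elsewhere, at 95% identity over 50% of its length. For 38 of the 53 genes no 50-nt read matches another transcript exactly, and for 40 genes under 5% of the reads match with up to 2 mismatches. Across the genes the log2 ratio had a rank correlation of -0.20 with transcript length, -0.26 with exon number, 0.00 with GC content and -0.05 with the RNA-seq level. Over all tested genes the same correlations were -0.31, -0.32, -0.16 and -0.40. The RNA-seq level is itself part of the ratio, so a negative correlation with it is in part built in.

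Upstream of the genes, elements known from plant ribosomal protein promoters were searched on both strands in the 250 bases before the annotated start of each gene. Site II elements, bound by TCP transcription factors, were searched as TGGGCC and TGGGCT, the telo-box as AAACCCTA and the TATA box as TATAAA, and matches of different elements may overlap. Either site II was present in 37 of 53 windows (69.8%), against 19.2% of the windows of 27443 coding genes. The telo-box was present in 10 windows (18.9% against 4.49%), and TATAAA in 27 (50.9% against 47.4%). The median RNA-seq level was 194.87 RPKM for the 37 genes with either site II and 158 RPKM for the 16 without. Between the most and the least abundant RPL19 gene the match and the level ran opposite ways, as their windows show (TAIR10.1, chr1:609535-609784 on the minus strand for emb2386 and chr3:5708576-5708825 on the plus strand for AT3G16780, 5′ to 3′ toward the gene, capitals at TGGGCC or its complement GGCCCA).
AT1G02780: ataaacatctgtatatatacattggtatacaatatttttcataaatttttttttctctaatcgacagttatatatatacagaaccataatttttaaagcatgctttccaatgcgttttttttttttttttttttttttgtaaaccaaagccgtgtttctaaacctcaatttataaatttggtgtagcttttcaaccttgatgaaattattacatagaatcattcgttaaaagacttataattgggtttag
AT3G16780: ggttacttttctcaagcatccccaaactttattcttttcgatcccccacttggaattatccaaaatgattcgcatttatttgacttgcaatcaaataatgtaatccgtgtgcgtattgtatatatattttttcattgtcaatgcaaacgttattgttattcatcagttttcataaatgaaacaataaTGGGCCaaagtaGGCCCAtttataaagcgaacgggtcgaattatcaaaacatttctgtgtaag
The window of AT3G16780 holds TGGGCC 63 bases and GGCCCA 51 bases before the start, and that of emb2386 holds neither, nor TGGGCT. The RNA-seq level of emb2386 was 14.2-fold above that of AT3G16780. The remaining RPL19 gene, AT4G02230, lay between them at a mean of 126.94 RPKM in RNA-seq, with 2 matches of TGGGCT. A match is a description of letters and not a bound site.

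Other genes of the translation machinery were tested in the same fit. Of 168 further cytosolic ribosomal protein genes 161 were tested; 89 were lower and 40 higher in GMUCT by limma, with a median log2 ratio of -0.56, and by the rule of size 52 were below and 19 above. The lowest were AT5G15200, a gene of the small-subunit protein RPS9, at 441.70, 517.36 and 58.54 RPKM, and the ubiquitin fusion gene UBQ1 at 230.36, 285.38 and 31.76 RPKM. UBQ6, another ubiquitin fusion gene, was at 15.65, 12.48 and 218.01 RPKM. AT1G59359 was at 0 in RNA-seq 1 and in RNA-seq 2 but at 102.63 RPKM in GMUCT, and no fold is given. How reads shared between ubiquitin genes or close copies were counted is not known here.

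Of 11 translation elongation factor genes 2 were higher and 4 lower, with a median of -0.01. The extremes were AT5G19510, an EF1B subunit, at -1.85, LOS1, an elongation factor of the EF2 type, at -1.44, and the EF1A genes AT1G07920 at 0.45 and AT1G07940 at 2.30. Of 14 ribosome assembly genes 7 were higher and 3 lower, with a median of 0.19. The extremes there were AT2G40360 at -1.52, the fibrillarin gene FIB2 at -1.17, the NOP56-like gene AT3G12860 at 2.11 and NAP57, the pseudouridine synthase of box H/ACA particles, at 2.19. No test of one list against another was made.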

How the data were processed

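RNA-seq of polyA RNA (2 libraries) and GMUCT (1 library) of dcl1-7 inflorescences were compared. The authors deposited 1 table of gene identifiers and RPKM values per library. Reads were strand-specific and 50 nt long, per the labels. The submitters' processing notes name cutadapt 1.4.2, STAR 2.4.0 and the build TAIR10. How reads were counted, on which annotation, whether by strand, and what was done with multiply matching reads is not given in the sources used here; no read counts were used. Depths were estimated from the steps of RPKM times length; 43.3% to 46.6% of low values lay within 0.1 of a whole read, so these depths are rough and carry no intervals.

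A gene missing from a table was set to 0 RPKM. Values were tested as log2(RPKM + 0.5), which understates ratios of low genes, for the 20214 genes whose GMUCT value and RNA-seq mean averaged at least 1 RPKM. The test was limma 3.58.1 in R 4.3.3 (eBayes with trend, two-sided, Benjamini-Hochberg adjusted over all tested genes at 0.05), with 1 residual degree of freedom. It was run on simulated data that gave GMUCT the spread of RNA-seq, so that run cannot check the assumed GMUCT spread. P-values then measure only the spread between the RNA-seq libraries. The members and lists were chosen with earlier results of these data known. The genes are named by set, except for 1 set that is counted in the totals and not reported here by name, with every library's value for sets spanning at least 2 log2 units and for RPL29, RPL13a, RPL10 and RPS18; of the other lists the 2 highest and 2 lowest ratios are named. Protein names of sets follow common usage.

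Sequences, overlaps and lengths came from RefSeq's TAIR10.1, joined by identifier; the tables hold no coordinates. Shared reads were found by aligning every 50-nt stretch of a transcript with bwa 0.7.19 and near-identical copies with BLAST 2.17.0. Alternatives covered the pseudocount, the filter, centring, a length trend, the fold, each RNA-seq replicate and genes with shared or overlapping sequence.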

Additional observations from a re-analysis of the deposited data

How the results depend on the processing

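The count of genes higher in GMUCT by limma was 11 and became 7 with no filter on low values, where 9 of the 45 calls were lost in either direction and the sets with calls in both directions went from 7 to 4. Without genes that share 10% or more of their 50-nt reads with another gene, an alternative chosen after seeing the data that left out 10 genes, 7 were higher, 1 was above by the 2-fold rule, the median log2 ratio was -0.79, the sets spanning at least 2 log2 units went from 9 to 6 and those with calls in both directions from 7 to 4, and the sets with genes on both sides of the 2-fold rule went from 1 to 0. Without the 10 genes that overlap another gene, also chosen after seeing the data, the median was -0.73 and 7 sets spanned at least 2 log2 units. Sets with calls in both directions then went from 7 to 5. Removing the length trend gave a median of -0.91, 0 sets with genes on both sides, and 25 of the other ribosomal protein genes were higher in place of 40; AT2G19730 turned to -0.057 and AT3G06680 to -0.36. With the median of all tested genes set to 0, a shift of 0.07, the median was -0.59. At 1.5-fold in place of 2-fold, 6 genes were above and 4 sets had genes on both sides; at 4-fold, 6 genes were below and 0 sets had both. The cause of these changes was not tested, apart from the fewer genes or the other threshold that each alternative holds by construction. Leaving out either RNA-seq replicate gave 3 to 4 genes above, 19 to 21 below, a median of -0.69 to -0.63 and the same leading gene in 13 to 14 sets. The limma counts could not be had without an RNA-seq replicate, since no residual degrees of freedom remain. No gene had a near-identical copy, so that alternative left every count as it was. No paired analysis was possible because the RNA-seq and GMUCT libraries share only replicate number 1. The single GMUCT library limits every comparison: its own spread is unknown.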
